A study of Homo sapiens with 4 samples.

Results

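The enzymes of de novo purine and pyrimidine synthesis were followed in NUDUL1, a lymphoma line of human origin classed as diffuse large B cell lymphoma of the germinal center type. The 10 genes, PPAT, GART, PFAS, PAICS, ADSL, ATIC, IMPDH2, GMPS, CAD and UMPS, were taken by their symbols from a table of 25066 genes, and each symbol matched 1 row. All cells derived from a single-cell clone with doxycycline-inducible Cas9 and carried the transduced thromboxane receptor Tbxa2r, which couples to Gα13, the protein that GNA13 encodes. Control cells received a control sgRNA and GNA13-deficient cells received a GNA13 sgRNA, with 1 sgRNA per genotype and doxycycline given to both to induce Cas9. Both were treated with 10 nM U46619, a stable thromboxane A2 analog that activates the receptor, for 24 h, and 2 libraries were sequenced per genotype. No untreated cells were sequenced, so each comparison was between genotypes under ligand.

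Cells build purines from an activated ribose phosphate, phosphoribosyl pyrophosphate (PRPP). The ring is assembled on PRPP stepwise, with nitrogen from glutamine and aspartate, carbon from formyl-tetrahydrofolate, and glycine, to give inosine monophosphate (IMP). IMP is then turned into guanine or adenine nucleotides, and in the separate pyrimidine route the ring is made first and joined to PRPP afterwards, to give uridine monophosphate (UMP). Dividing lymphocytes depend heavily on these routes for DNA and RNA precursors, and inhibitors of IMP dehydrogenase and of dihydroorotate dehydrogenase are used as immunosuppressants for that reason.

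Of the 10 genes, 5 rose in GNA13-deficient cells, namely PPAT, PFAS, PAICS, GMPS and UMPS, by 1.18-fold to 1.55-fold. None was called lower, and none had a negative difference with an unadjusted p under 0.05. Among all genes tested 13.1% were called higher, and among the 2604 with a mean level at or above that of UMPS 28.8%. The count depended on the scaling: quantile normalization gave 3 higher, median centring 8 and centring on reference genes 1, with up to 1 gene called lower. GMPS, which makes guanosine monophosphate, rose most, while IMPDH2, which supplies its substrate, stood at a difference of -0.10 on the log2 scale. The other 4 genes, GART, ADSL, ATIC and CAD, had positive differences of 0.09 to 0.30 that did not pass the test. As shares of all mapped reads, the 10 genes together took 0.275% and 0.268% in the control libraries and 0.320% and 0.308% in the GNA13-deficient libraries.

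Values are the log2 of normalized reads as the authors deposited them, and a difference of 1 on this scale is a doubling. Genes were compared by limma over 16945 genes, each listed above 0 in 2 or more libraries, and a gene was called when its adjusted p (Benjamini-Hochberg over all of these genes) was under 0.05. The labels give the 2 libraries of a genotype as duplicate treatments, so p values measure only the spread between these duplicates, which may be technical. Mapped reads per library ran from 29209544 to 31537955. Each of the 10 genes passed the filter, with 2181 to 23103 reads per library, so that counting error alone gave a 95% half-width (exact Poisson) of 0.022 to 0.061 on the log2 scale. In bulk RNA, fewer cells of a kind and less RNA per cell cannot be told apart.

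GNA13 itself, the targeted gene, did not have less mRNA in the libraries labelled GNA13-deficient. Its values were 12.46 and 12.45 in the control libraries and 13.10 and 13.11 in the GNA13-deficient ones, a difference of 0.65 (SE 0.05, limma adjusted p = 0.00214). Guide-directed Cas9 cuts can disrupt a protein without removing its mRNA, and Gα13 protein was not measured in these libraries, so each direction given here rests on the labels. The 8 B cell markers examined, among them MS4A1 and PAX5, were present in all libraries at log2 levels of 8.23 to 14.33. In RPM, the recovered reads of a gene scaled to a common total of mapped reads, they summed to 2480 and 2490 in control and to 2270 and 2320 in GNA13-deficient libraries. T cell markers summed to at most 0.171 RPM, with 2 of 4 at 0 in every library. Myeloid markers summed to 3.20 to 3.39 in control and 0.707 to 0.829 in GNA13-deficient libraries, and stromal and endothelial markers to 3.77 to 4.11 and 0.876 to 0.896. In mean log2 level the highest gene of the myeloid list was LYZ, at 6.38 in control and 3.84 in GNA13-deficient libraries. PECAM1 was the highest of the stromal and endothelial list, at 6.83 and 3.80, while COL1A1 went the other way, at 2.50 and 3.52, and was not called. The sums therefore rest largely on single genes and do not describe a cell type. The part of these markers in the results was not tested.

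PPAT and PAICS, the enzymes of the committing step and of a pair of later steps toward IMP, are neighbouring genes on chromosome 4 that are read in opposite directions. In GENCODE gene models on hg19, PPAT lies on the minus strand at chr4:57259528-57301781 and PAICS on the plus strand at chr4:57301907-57330744. The 125 bases between their annotated starts are shown because both genes rose, and capitals mark the GC box GGGCGG, which occurs 3 times (chr4:57301782-57301906, plus strand, hg19).
PPAT-PAICS: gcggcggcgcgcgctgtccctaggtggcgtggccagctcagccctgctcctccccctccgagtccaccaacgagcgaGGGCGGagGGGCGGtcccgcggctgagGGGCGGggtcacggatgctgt
Just inside the PAICS transcript, at bases 41 to 46 from the RefSeq start, stood an E-box, CACGTG, in capitals (chr4:57301946-57301967, plus strand).
PAICS: ctgtatttgctgCACGTGgaaa
GMPS, the gene with the largest difference, lies on the plus strand at chr3:155588439-155661809. The 250 bases before its annotated start (chr3:155588189-155588438) held the GC box 4 times, in capitals, and no E-box.
GMPS: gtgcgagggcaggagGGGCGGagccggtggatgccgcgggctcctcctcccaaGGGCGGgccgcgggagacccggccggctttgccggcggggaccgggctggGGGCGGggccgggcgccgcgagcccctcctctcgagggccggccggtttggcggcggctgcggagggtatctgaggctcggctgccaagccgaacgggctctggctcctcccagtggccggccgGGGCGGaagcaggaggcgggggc

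RefSeq promoter windows, 300 bases each, from 250 bases before to 50 after a start, were at hand for 8 of the 10 genes, all but ADSL and IMPDH2, and each of their 12 windows matched hg19 exactly at 1 place. The letters of 8 motifs were searched on both strands. The GC box was in 8 of the 12 windows, against 45.0% of all 35116 promoter windows, and the 7 genes other than UMPS each had it in at least 1 window, GART in 1 of 3. The E-box was in 3 of the 12 windows, those of PPAT, PAICS and ATIC, against 7.26% of all windows. A window of PPAT and one of PAICS overlap and hold the same 3 GC boxes and the same E-box. ATIC, which was not called, had an E-box on each side of its RefSeq start, at bases -46 to -41 and 30 to 35 (chr2:216176724-216176753 and chr2:216176799-216176828, plus strand), shown with the motif in capitals.
ATIC before the start: gggccggcgggcCACGTGataagcccggaa
ATIC after the start: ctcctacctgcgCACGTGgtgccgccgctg
UMPS, which rose, held instead the cAMP response element TGACGTCA, found in 1.85% of all windows, at bases -47 to -40 from its RefSeq start (chr3:124449241-124449270, plus strand, motif in capitals).
UMPS: gacttcgcgggTGACGTCAtcggggcgccg
Genes with and without an E-box were found both among those that rose and among those that did not. The CCAAT box (34.6% of all windows) was in 4 of the 12 windows, of CAD and GART. The ETS core CCGGAAGT (4.14%), the TATA box TATAAA (11.5%) and the E2F core TTTGGCGC (0.652%) were each in a window of GART alone among the 8, and the E2F core TTTCGCGC (0.515%) in none. These matches describe letters and do not show binding.

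The route from PRPP to IMP is opened by PPAT, the amidotransferase that takes nitrogen from glutamine and is inhibited by the purine nucleotides at the end of the route. Its level was 11.63 and 11.58 in control and 11.83 and 11.87 in GNA13-deficient libraries. Both GNA13-deficient libraries were above both control libraries, and the rise was 0.24 (SE 0.05, 95% interval 0.11 to 0.38, limma adjusted p = 0.0265). GART, a protein with several activities in the next part of the route, stood at 13.24 and 13.26 in control and at 13.34 and 13.39 in GNA13-deficient libraries. The groups did not overlap, but the difference of 0.12 was not called (95% interval -0.03 to 0.26, limma adjusted p = 0.18). GART overlaps SON on the opposite strand, and the strand setting of the counting was not given in the sources used here.

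PFAS, which uses a further glutamine to convert the formylated intermediate into its amidine, rose in GNA13-deficient cells. Control libraries had 12.79 and 12.81 and GNA13-deficient libraries 13.24 and 13.12. The rise was 0.38 (SE 0.07, 95% interval 0.21 to 0.55, limma adjusted p = 0.0148), and the gap between groups was wider than the 0.12 between the GNA13-deficient libraries. PFAS overlaps CTC1 on the opposite strand, so a share of its reads may belong to that gene. PAICS, which carboxylates the imidazole ring and then adds aspartate, had the highest normalized reads of the 10 genes, at 14.14 and 14.02 in control and 14.53 and 14.54 in GNA13-deficient libraries. It rose by 0.46 (SE 0.07, 95% interval 0.26 to 0.65, limma adjusted p = 0.0123), and the groups stood apart. The annotation holds 7 pseudogenes of PAICS, so reads shared with them could be assigned either way.

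The last enzymes of the route to IMP did not pass the test. ADSL, which releases fumarate in IMP synthesis and again in AMP synthesis, had 12.53 and 12.72 in control and 12.60 and 12.84 in GNA13-deficient libraries. The groups overlapped, and the difference was 0.09 (95% interval -0.19 to 0.38, limma adjusted p = 0.573). ADSL overlaps SGSM3 on the same strand. ATIC, which adds the last carbon from formyl-tetrahydrofolate and closes the ring to IMP, had 13.24 and 13.31 in control and 13.45 in both GNA13-deficient libraries. The groups did not overlap, and the difference of 0.17 (95% interval 0.02 to 0.32) had a limma adjusted p of 0.0824. Over the 6 enzymes from PRPP to IMP, 3 were called higher and the median difference was 0.21. Of all genes tested 13.1% were called higher. Of those at or above UMPS in mean level 28.8% were, with a median difference of 0.09. After quantile normalization PFAS alone of the 6 was called, after centring on reference genes none, and after median centring all but ADSL.

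The branch from IMP to guanine nucleotides showed the widest contrast between neighbouring enzymes. IMPDH2, the main IMP dehydrogenase of dividing lymphocytes, had 13.59 and 13.66 in control and 13.52 and 13.53 in GNA13-deficient libraries. Both GNA13-deficient libraries were below both control libraries, and the difference of -0.10 was not called (95% interval -0.25 to 0.06, limma adjusted p = 0.298). GMPS, which then converts xanthosine monophosphate to guanosine monophosphate with nitrogen from glutamine, had 12.34 and 12.40 in control and 12.98 and 13.01 in GNA13-deficient libraries. It rose by 0.63 (SE 0.05, 95% interval 0.49 to 0.77, limma adjusted p = 0.00257), 1.55-fold, and the libraries of a genotype lay close together while the genotypes stood far apart. The annotation holds 1 pseudogene of GMPS. IMPDH2 overlaps 1 protein-coding gene on the same strand and 1 long noncoding RNA gene on the opposite strand. GMPS overlaps 1 long noncoding RNA gene on the same strand.

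In the pyrimidine route, UMPS rose and CAD did not pass the test. CAD is a fused protein that carries the opening activities of the route, including the glutamine-using carbamoyl phosphate synthetase. It had 13.03 and 13.15 in control and 13.51 and 13.28 in GNA13-deficient libraries, and the difference was 0.30 (SE 0.10, 95% interval 0.05 to 0.56, limma adjusted p = 0.0769). The groups did not overlap, but the GNA13-deficient libraries differed from each other by 0.23 and the control libraries by 0.12. UMPS joins orotate to PRPP and forms UMP. Its values were 11.12 and 11.09 in control and 11.42 and 11.43 in GNA13-deficient libraries, the lowest of the 10 genes, and it rose by 0.32 (SE 0.05, 95% interval 0.19 to 0.45, limma adjusted p = 0.0111).

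**Figure D1:**
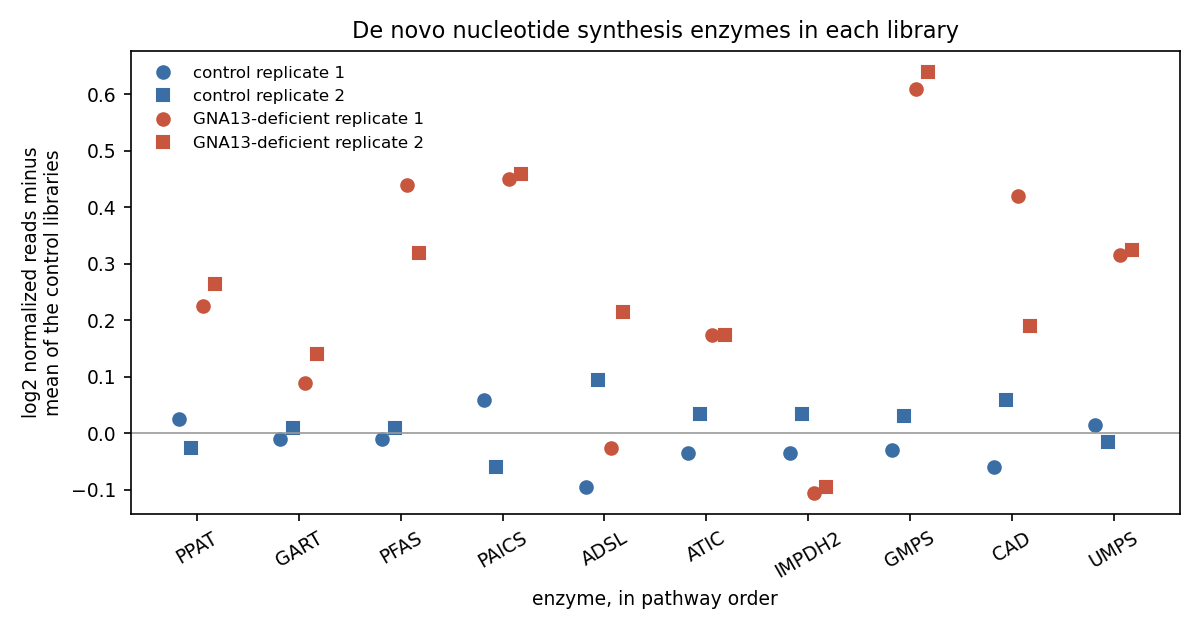
Log2 normalized reads of the 10 genes in each of the 4 libraries, minus the mean of the 2 control libraries of that gene, with 1 point per library (blue control, red GNA13-deficient, circles replicate 1, squares replicate 2). GMPS, which went from 12.34 and 12.40 to 12.98 and 13.01, stands highest, both red points of IMPDH2 lie below its blue ones, and the points of ADSL overlap.

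These counts stand against a wide response. Of all genes tested, 13.1% were called higher and 16.6% lower, and 31.3% had both GNA13-deficient libraries above both control libraries, against 5, 0 and 8 of the 10 genes. The 10 genes are also highly expressed, at or above 84.6% of the genes tested in mean level, and calls were more often upward there. Among the 2604 genes with a mean at or above that of UMPS, 28.8% were called higher and 13.3% lower, and their median difference was 0.09. The median of the 10 genes was 0.27, and that of all genes tested was -0.02. Whether 5 of 10 departs from the share in highly expressed genes was not tested, because the genes were chosen with earlier results of these data known.

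**Figure D2:**
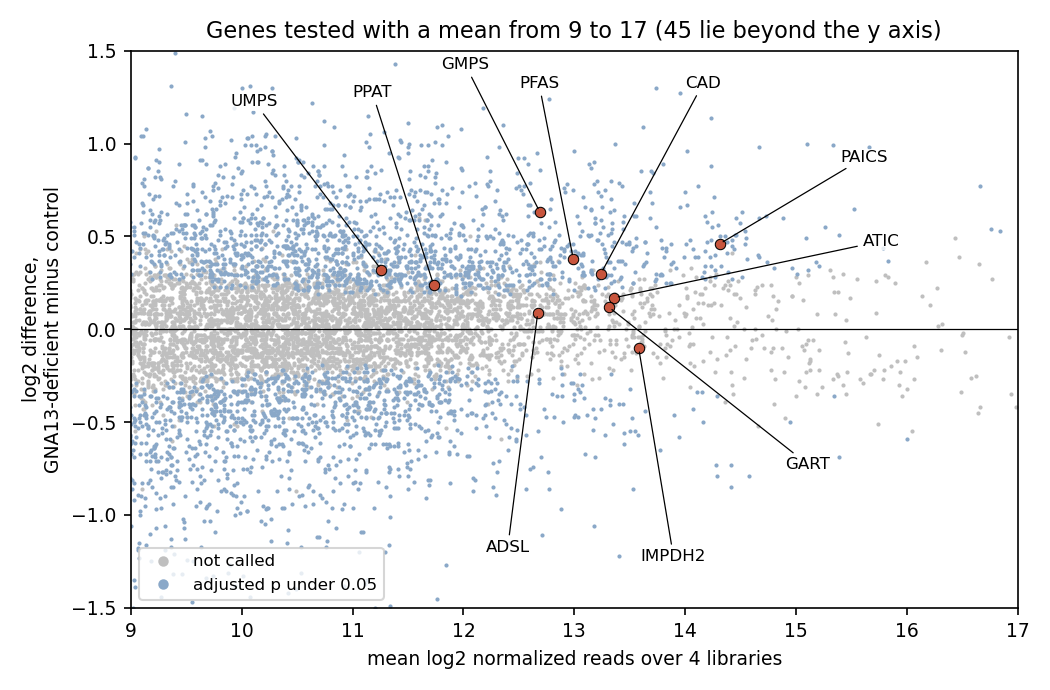
Log2 difference (GNA13-deficient minus control) against mean log2 normalized reads for tested genes with a mean from 9 to 17, with blue points for genes at an adjusted p under 0.05 and red points for the 10 genes. Of the 10 genes, 9 lie above 0 and IMPDH2 lies at -0.10, and 45 genes fall beyond the vertical limits.

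**Figure D3:**
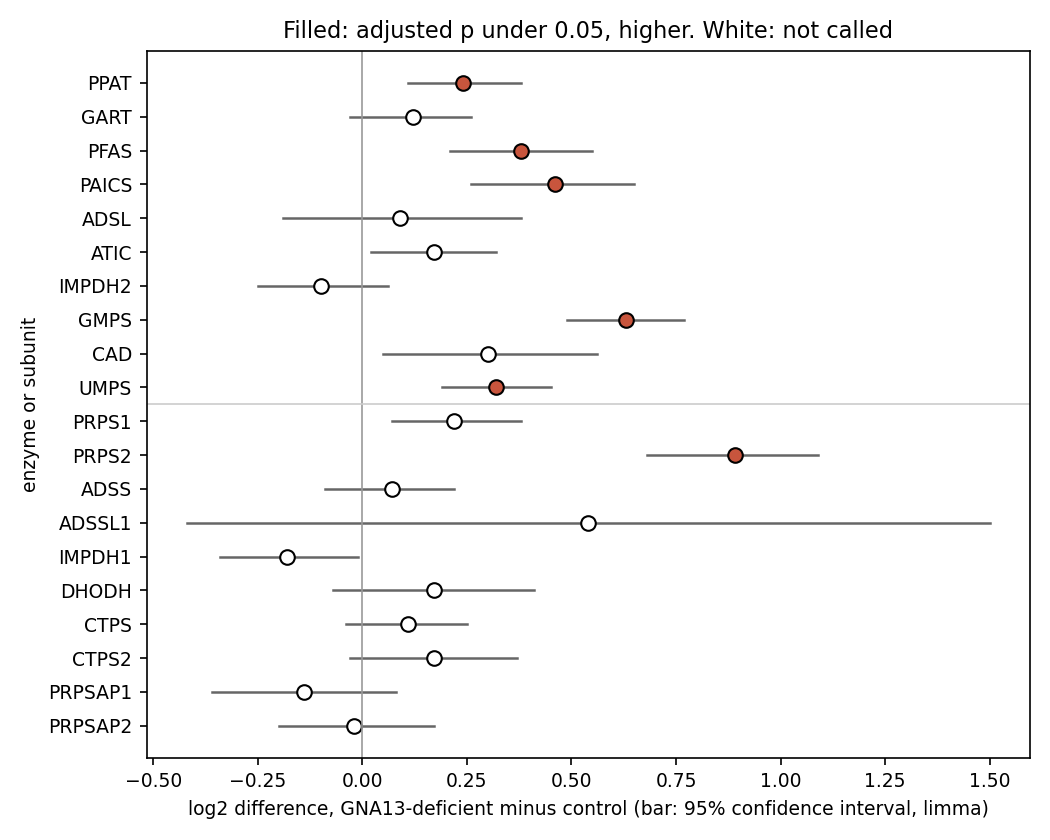
Log2 difference between genotypes (GNA13-deficient minus control) for each of the 10 genes in pathway order and, below the grey line, for other genes of the route, as points with bars for the 95% interval from limma and filled where called higher. The bars of GART, ADSL and IMPDH2 reach across 0, that of GMPS runs from 0.49 to 0.77, and PRPS2 stands at 0.89.

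The count depended on how the libraries were scaled. As deposited, 5 of the 10 genes were called higher and 0 lower, and 44% of the 5037 calls over all genes were upward. After quantile normalization PFAS, GMPS and UMPS were called higher and IMPDH2 lower, by 0.25, with a median of 0.17 for the 10 genes and 0.07 for all genes. After centring each library on its median, 8 were called higher, all but ADSL and IMPDH2, with medians of 0.48 and 0.18 and 69.1% of calls upward. Centring on 8 reference genes, chosen after the values were seen, shifted the median of all genes to -0.21 and that of the 10 genes to 0.09, with 20.9% of calls upward, GMPS called higher and IMPDH2 lower. Of the 8 reference genes themselves limma called none as deposited, with 2 (GAPDH and TBP) at an unadjusted p under 0.05, and GAPDH stood at 0.49 and PPIA at 0.02. GMPS was the one member called higher under each of these 4 scalings, with differences of 0.44 to 0.84. IMPDH2 changed sign, from -0.28 to 0.11, and GART, ADSL and ATIC did so too. Which scaling is right was not tested. Without any 1 of the 4 libraries, limma called no gene at all, and the difference of GMPS was 0.60 to 0.66.

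**Figure D4:**
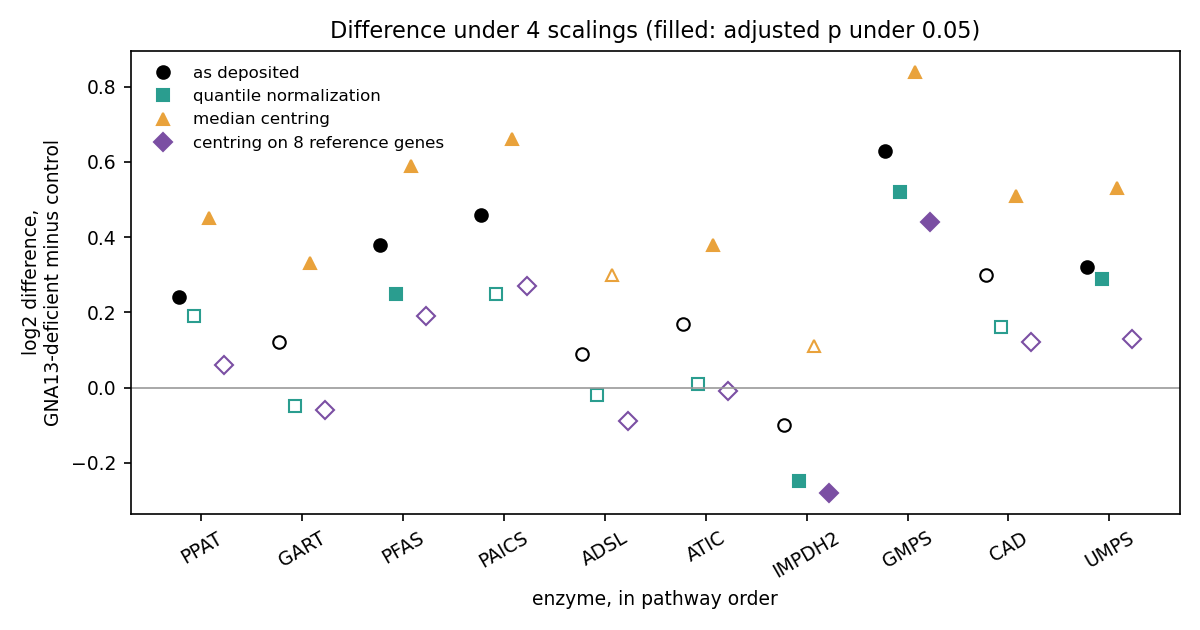
Log2 difference (GNA13-deficient minus control) of each of the 10 genes under the deposited values (circles), quantile normalization (squares), median centring (triangles) and centring on 8 reference genes (diamonds), filled where the adjusted p was under 0.05. Each gene is highest under median centring, and GMPS is filled under all 4, between 0.44 and 0.84.

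Ratios between genes within a library do not depend on a common scaling of that library. A ratio of each enzyme over the one before it in its branch, and of PAICS over PPAT, gave 8 ratios. The log2 ratio of GMPS over IMPDH2 was -1.24 and -1.26 in control and -0.54 and -0.52 in GNA13-deficient libraries, a change of 0.72, or 0.77 after quantile normalization. In linear terms there were 0.420 GMPS reads per IMPDH2 read in control and 0.694 in GNA13-deficient cells. This was the largest change of the 8 ratios. ADSL over PAICS moved the other way, from -1.61 and -1.29 to -1.93 and -1.69, a change of -0.36. PFAS over GART changed by 0.26 and GART over PPAT by -0.12, again without overlap. Although PAICS and PPAT are divergent neighbours, the ratio of PAICS over PPAT was 2.51 and 2.43 in control and 2.70 and 2.67 in GNA13-deficient libraries, a change of 0.21 that fell to 0.06 after quantile normalization. UMPS over CAD overlapped, at -1.91 and -2.05 against -2.09 and -1.85, as did PAICS over PFAS and ATIC over ADSL. With 2 libraries per genotype the two-sided exact permutation test cannot give a p under 0.333, which was the value for the 5 ratios without overlap (0.533 after Benjamini-Hochberg adjustment over the 8).

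Grouped by the nitrogen or carbon they use, the 4 glutamine-using enzymes (PPAT, PFAS, GMPS and CAD) had differences of 0.24 to 0.63, with a median of 0.34, and 3 of them rose. Both formyl-tetrahydrofolate-using enzymes, GART and ATIC, were not called, at 0.12 and 0.17 with a median of 0.15. The 4 enzymes that use neither had differences of -0.10 to 0.46, a range that overlaps that of the glutamine group. Their median was 0.21, and PAICS and UMPS among them rose. The share called higher was 13.1% of all genes tested and 28.8% of those at or above UMPS in mean level. These calls depended on the scaling. After quantile normalization PFAS, GMPS and UMPS were called higher, and after centring on reference genes GMPS alone. After median centring all of the 10 genes but ADSL and IMPDH2 were called higher. CTPS and CTPS2, which also use glutamine but are outside the 10 genes, had 0.11 and 0.17 and were not called. The difference between these groups was not tested.

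Levels of different genes can be compared only per length, so values in RPM were divided by the kilobases of the longest annotated transcript. On this scale the control means ran from ATIC, at 144, through GART at 89.7, PAICS at 89.6, IMPDH2 at 84.7, PFAS at 43.8, ADSL at 42.0, CAD at 39.4, PPAT at 25.4 and GMPS at 20.2 to UMPS at 10.9. The ranges of the control libraries overlapped for GART and PAICS, for PAICS and IMPDH2, for PFAS and ADSL, and met at 40.1 for ADSL and CAD. In GNA13-deficient cells, PAICS stood at 120 and 117, apart from GART at 94.0 and 94.1. The order depended on the transcript used. With canonical transcripts in place of the longest, IMPDH2 (1651 in place of 4906 bases) was the highest of the 10, at 252 in control and 228 in GNA13-deficient cells, and ADSL stood above PFAS in control, at 47.9 against 43.8. In GNA13-deficient cells GMPS, at a mean of 30.2, was above PPAT by longest transcripts (29.0) and below it by canonical ones (31.9).

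The other enzymes of de novo synthesis gave 1 call among 8 as deposited, after quantile normalization the same 1, after median centring 6, all higher, and after centring on reference genes 1 higher (PRPS2) and 1 lower (IMPDH1). PRPS2, a synthetase that makes PRPP, had 12.65 and 12.73 in control and 13.49 and 13.66 in GNA13-deficient libraries, a rise of 0.89 (SE 0.08, limma adjusted p = 0.00268). Its paralog PRPS1 had a difference of 0.22 (limma adjusted p = 0.0504), just outside the threshold. In the AMP branch, the adenylosuccinate synthetases ADSS and ADSSL1 had differences of 0.07 and 0.54, the latter at log2 levels of only 2.30 to 3.04. IMPDH1, the second IMP dehydrogenase, had -0.18 and was not called (limma adjusted p = 0.103). DHODH, the mitochondrial step between CAD and UMPS, had 0.17 (limma adjusted p = 0.231). CTPS (now CTPS1) and CTPS2, which make CTP from UTP and glutamine, had 0.11 and 0.17. The median of these 8 was 0.17. As deposited, 13.1% of all genes tested were called higher, and 28.8% of those at or above UMPS in mean level. Whether these 8 depart from such shares was not tested. PRPSAP1 and PRPSAP2, proteins that associate with PRPP synthetase, had -0.14 and -0.02 and were not called.

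Most of the enzymes that supply folate-bound carbon rose: of 8 listed genes 7 were tested. Of these, 6 rose and 1 fell, with a median of 0.40. Among all genes tested 13.1% were called higher and 16.6% lower, and among those at or above UMPS in mean level 28.8% and 13.3%. Whether the folate list departs from these shares was not tested. MTHFD1, which makes formyl-tetrahydrofolate in the cytosol for GART and ATIC, had 12.91 and 12.92 in control and 13.58 in both GNA13-deficient libraries, a rise of 0.66 (SE 0.05, limma adjusted p = 0.00222). The mitochondrial enzymes MTHFD2, MTHFD1L and SHMT2 rose by 0.33, 0.42 and 0.35, and the cytosolic SHMT1 by 0.40 (limma adjusted p 0.00736 to 0.0232). ALDH1L2, which oxidizes formyl-tetrahydrofolate in mitochondria, fell by 3.36 on the log2 scale, from 6.05 and 5.95 to 2.36 and 2.91 (limma adjusted p = 0.00400). ALDH1L1 was listed at 0 in every library. SHMT2 and MTHFD2 were not called after quantile normalization, at 0.18 and 0.20, and after centring on reference genes MTHFD2, MTHFD1L, SHMT1 and SHMT2 were not called, at 0.15 to 0.24.

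The salvage route, which reuses preformed bases and nucleosides, showed calls in both directions, and its median difference was 0.06. Of 16 listed genes 13 were tested, 4 rose (30.8%) and 2 fell. Among all genes tested 13.1% were called higher and 16.6% lower, and among those at or above UMPS in mean level 28.8% and 13.3%. Whether this list or the nucleotide kinases below depart from these shares was not tested. HPRT1, which salvages hypoxanthine and guanine with PRPP, had 11.82 in both control libraries and 12.61 and 12.73 in GNA13-deficient libraries, a rise of 0.85 (SE 0.06, limma adjusted p = 0.00200). The adenosine kinase ADK rose by 0.41 and the uridine-cytidine kinases UCK1 and UCK2 by 0.55 and 0.42 (limma adjusted p 0.00606 to 0.0220). The AMP deaminases AMPD2 and AMPD3, which return AMP to IMP, were both called lower (limma adjusted p = 0.0108 and 0.00114). AMPD2 fell by 0.36 on the log2 scale, and AMPD3 fell by 2.41, from 8.60 and 8.59 to 6.17 and 6.19. After median centring AMPD2 stood at -0.15 and was not called. Of 9 nucleotide kinases tested, 3 rose (33.3%) and 2 fell, with a median of 0.16. Among them NME1 and AK3L1 (now AK4) rose by 0.43 and 0.31, AK1 fell by 1.68 and NME4 fell by 1.03 on the log2 scale (limma adjusted p 0.00495 to 0.0374). NME1 is similar in sequence to NME2, which was not called, and a share of their reads may be assigned either way. After centring on reference genes ADK, UCK1 and AK3L1 were not called, at 0.22, 0.37 and 0.13.

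**Figure D5:**
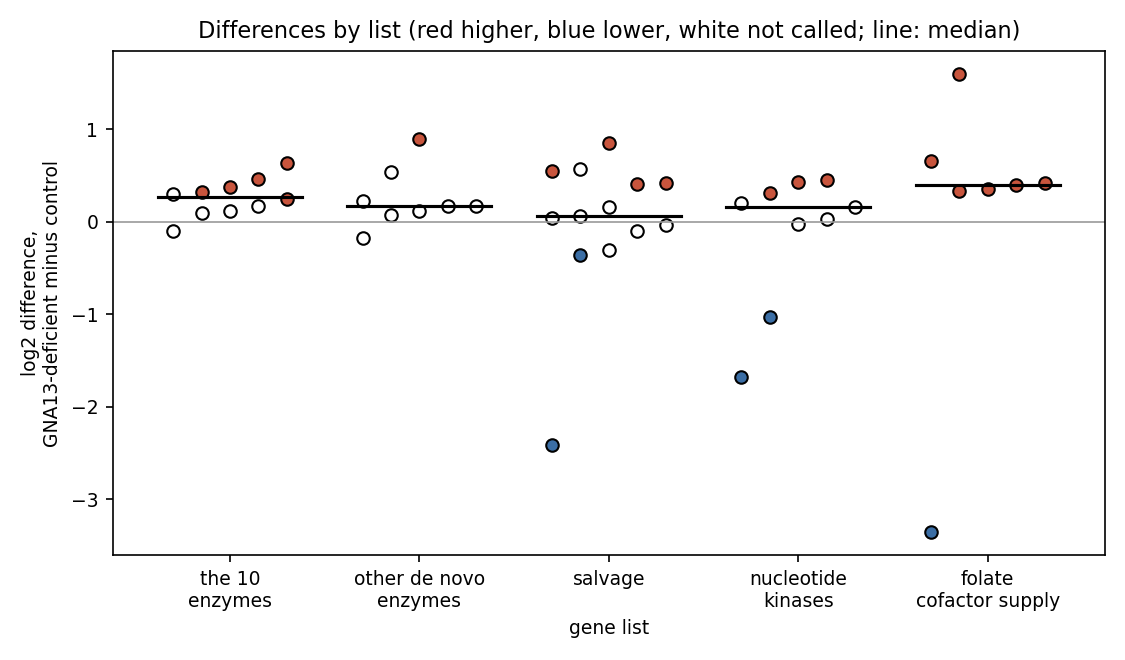
Log2 difference (GNA13-deficient minus control) of every tested gene in 5 lists, with 1 point per gene, red where called higher, blue where called lower and white where not called, and a line at the median. The medians were 0.27 for the 10 genes, 0.17 for the other enzymes of de novo synthesis, 0.06 for salvage, 0.16 for nucleotide kinases and 0.40 for folate cofactor supply.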

How the data were processed

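RNA from control and GNA13-deficient NUDUL1 cells was made into stranded poly(A) libraries, 2 per genotype. Whether the 2 came from separate cultures is not given in the sources used here. Paired reads were 151 bp long by the paper and 50 cycles by the labels. The authors aligned reads with STAR to hg19, and HTSeq is in the submitters' processing notes; versions, annotation, strand setting and normalization method are not given in the sources used here. The values are log2 normalized reads as deposited, with a row of other units, the total mapped reads, which the authors deposited on a linear scale and which was used for depth only. Whole reads were recovered from the value of 1 read per library (0.984 to 1.08), with 100% of values up to 400 reads whole within 0.0006 on the log2 scale. In control replicate 2, where 1 read is worth less than 1, 0 genes stood at 1 read (1269 to 1314 in the other libraries) and 9309 were listed at 0 (7946 to 8602), so a value of 0 there can hold genes with 1 read.

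Genotype was the only term of the limma test (version 3.58.1 under R 4.3.3), which was two-sided, took a mean-variance trend in eBayes, had 2 residual degrees of freedom and used a threshold of 0.05. No pseudocount was used. Sequences and gene models came from the hg19 genome, GENCODE and RefSeq promoter windows (GRCh38.p14), by Python 3.11.15. The 10 genes and the other lists, written from general knowledge, were chosen with earlier results of these data known. Genes named were the 10 genes, GNA13, all other de novo enzymes, and called genes of the salvage, kinase and folate lists. For 3 genes of that rule no value is reported. GAPDH, TBP, PPIA, LYZ, PECAM1, COL1A1 and the genes listed at 0 were named after their values were seen. Alternatives were a filter at the median, no filter, pseudocounts of 1 and 10, quantile normalization, median centring, a replicate block, no variance trend, a robust prior, voom on recovered reads, leaving out each library and, added after seeing the data, centring on 8 reference genes. The pipeline was tested on simulated data.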

Additional observations from a re-analysis of the deposited data

How the results depend on the processing

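Leaving out any 1 library left limma 1 residual degree of freedom, the lone library being assumed to vary like the other group. No call of the main fit remained. GNA13 then ranged from 0.65 to 0.66 and GMPS from 0.60 to 0.66. ADSL ranged from -0.03 (GNA13-deficient replicate 2 left out) to 0.21 and was -0.00 with control replicate 1 left out, and PRPSAP2 was 0.06 with GNA13-deficient replicate 1 left out. With the replicate number as a block, which no source ties to a shared culture (r = 0.453 between deviations of same-numbered libraries, 2 pairs), 6616 genes and 7 members were called, ATIC and CAD being added, and GMPS was 0.63. Over the 11 alternatives that kept all libraries, GMPS was called in 11, UMPS in 9, PFAS in 8, PAICS in 7 and PPAT in 6. Members called higher were 2 with no filter, 1 with no variance trend, 3 (and 1 lower) with quantile normalization, 8 with median centring and 1 (and 1 lower) with reference centring, against 5. Other pathway genes called were 14 higher and 5 lower, against 5 and 2 with no filter, 4 and 3 with no variance trend, 22 higher with median centring, 7 and 9 with reference centring, and 3 lower with the filter at the median. Genes called in all were 1999 with no filter, where values at 0 enter the fit, and 2718 with no variance trend, against 5037. Signs reversed with quantile normalization for GART (-0.05), ADSL (-0.02) and CTPS (-0.01), with median centring for IMPDH2 (0.11), IMPDH1 (0.03), PRPSAP1 (0.07) and PRPSAP2 (0.19), and with reference centring for GART (-0.06), ADSL (-0.09), ATIC (-0.01), ADSS (-0.12), DHODH (-0.01), CTPS (-0.08) and CTPS2 (-0.01). The cause was not tested. Counting error was 0.022 to 0.061 per gene and library, and libraries of a genotype differed by 0 to 0.24.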
